A study of Mus musculus with 2 samples.

Results

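The measurements described here come from 298 spots of a mouse fracture callus in which Sost and Mepe were both detected. Sost encodes sclerostin and Mepe a matrix phosphoglycoprotein, and both are markers of osteocytes. They are called Sost/Mepe spots below, and they were chosen by their counts: every spot of either section with at least 1 unique molecular identifier (UMI, a count of 1 captured molecule) of Sost and at least 1 of Mepe was taken. Of 6380 spots over tissue these were 4.67%. A spot is a small disc of tissue that can hold several cells, so these are spots that hold transcripts of osteocyte markers and not single osteocytes. Whether each of these spots lies in bone was not tested.

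Calluses of the distal tibia were collected 10 days after a pin-stabilized fracture from 2 mice aged 8 weeks, decalcified in EDTA and embedded together in 1 paraffin block. The control mouse carried Nf1[+/flox] without Cre. The mutant mouse carried Postn-cre;Nf1[flox/-] (called Nf1Postn), in which every cell lacks 1 Nf1 allele and Cre from the periostin promoter removes the floxed allele in periosteal and other Postn-expressing cells. Transcripts were captured with pairs of probes on Visium slides from 2 sections of that block, each of which held both calluses, giving 4 combinations of section and genotype.

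The sample titles call the sections biological replicates, while the series' description has both calluses embedded together and cut into 2 sections. They are therefore treated here as 2 sections of 1 mouse per genotype, so no test between genotypes was possible and none was run. Intervals below are exact 95% intervals for counting error only. A difference was called where it was at least 2-fold in the same direction in every combination of section and genotype. Levels are given as CPM, the UMIs of a gene summed over all spots of a group, divided by all UMIs of that group and multiplied by 1000000. The summed UMIs of Sost/Mepe spots were 1180736 and 725674 in control sections 1 and 2, but only 58557 and 72762 in Nf1Postn, so control levels were the more precise. The median UMIs per spot were 7644 and 6290 in control and 2420 and 2515 in Nf1Postn Sost/Mepe spots. In all spots of the same tissue the medians were 7053, 5719, 2030 and 3240. Fewer cells of a type in a spot and less RNA per cell cannot be told apart in such data.

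Osteocytes are former osteoblasts that became enclosed in the matrix they laid down, and they connect to each other and to the bone surface through fine canals. They regulate bone mass by secreting sclerostin, which blocks Wnt signalling at its co-receptors, and regulate mineral and phosphate through DMP1, PHEX, MEPE and FGF23. In a healing fracture they are found in the old cortex and, later, in the woven bone of the callus. Neurofibromin, the product of Nf1, turns off Ras.

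The promoters of 3 genes are shown, Sost and Mepe because they are the rule and Dmp1, which encodes dentin matrix protein 1, because it had the most UMIs of the osteocyte list. Each sequence is the 250 bases before an annotated start (RefSeq, GRCm38.p6), written 5′ to 3′ on the gene's strand. Capitals mark matches to TGTGGT or its reverse complement ACCACA, the core letters of the motif of RUNX factors. Mepe held 2 matches (chr5:104325079-104325328, plus strand), Sost 0 (chr11:101967016-101967265, minus strand), and the Dmp1 windows 0 (chr5:104197325-104197574, plus strand) and 1 (chr5:104202367-104202616, plus strand). Of 32851 promoter windows of this length 14.0% held at least 1 match on either strand, and a match is a description of letters, not a bound site.
Sost: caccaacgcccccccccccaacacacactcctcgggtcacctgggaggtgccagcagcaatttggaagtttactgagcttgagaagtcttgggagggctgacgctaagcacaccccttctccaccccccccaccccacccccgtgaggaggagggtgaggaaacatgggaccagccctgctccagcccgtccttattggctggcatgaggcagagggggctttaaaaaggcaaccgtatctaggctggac
Mepe: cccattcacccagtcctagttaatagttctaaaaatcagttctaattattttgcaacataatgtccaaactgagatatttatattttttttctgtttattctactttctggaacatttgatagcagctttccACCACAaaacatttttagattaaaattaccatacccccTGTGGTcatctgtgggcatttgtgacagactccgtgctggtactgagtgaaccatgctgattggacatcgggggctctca
Dmp1, upstream start: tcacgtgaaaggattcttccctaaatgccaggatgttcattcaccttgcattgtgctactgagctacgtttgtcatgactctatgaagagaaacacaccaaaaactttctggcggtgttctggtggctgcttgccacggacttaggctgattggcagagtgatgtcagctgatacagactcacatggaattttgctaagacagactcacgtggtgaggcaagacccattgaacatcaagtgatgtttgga
Dmp1, downstream start: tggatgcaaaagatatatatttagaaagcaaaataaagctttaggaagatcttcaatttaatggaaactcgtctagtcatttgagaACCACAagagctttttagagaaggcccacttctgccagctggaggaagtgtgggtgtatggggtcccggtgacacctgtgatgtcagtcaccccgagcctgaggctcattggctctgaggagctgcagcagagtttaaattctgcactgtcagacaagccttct

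In the genome build of the counts (mm39), Mepe lies on chromosome 5 from 104473195 to 104486478, next to Ibsp (104447037 to 104459336), Dmp1 (104350479 to 104361969) and Spp1 (104582984 to 104588917). Sost lies on chromosome 11 from 101853284 to 101857842. Phex, the endopeptidase gene of the phosphate pathway, lies on the X chromosome from 155945071 to 156198309. Nf1 lies on chromosome 11 from 79230519 to 79472439.

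More spots met the rule in the control callus, whose spots were deeper. Sost/Mepe spots made up 149 of 1700 spots in control section 1 (8.76%, interval 7.46 to 10.2%) and 96 of 1778 in control section 2 (5.40%, 4.40 to 6.55%). In Nf1Postn they made up 26 of 1341 spots (1.94%, 1.27 to 2.83%) and 27 of 1556 spots (1.74%, 1.15 to 2.51%). Over both sections the shares were 7.04% (6.22 to 7.95%) in control and 1.83% (1.37 to 2.39%) in Nf1Postn. None of 5 spots without a genotype was a Sost/Mepe spot. A spot with more UMIs has more chance to meet the rule. After every spot of at least 1000 UMIs was thinned to 1000, 47 spots met it, 34 of 3350 in control (1.01%, 0.704 to 1.42%) and 13 of 2569 in Nf1Postn (0.506%, 0.270 to 0.864%). At this equal depth the difference between the genotypes was smaller and the intervals overlapped.

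Mepe was the rarer gene of the pair. At least 1 Mepe UMI was present in 10.2% and 7.31% of control spots and in 3.73% and 3.34% of Nf1Postn spots. At 1000 UMIs per spot the shares with Mepe were 1.85% (1.42 to 2.37%) in control and 1.83% (1.35 to 2.43%) in Nf1Postn, so the difference was not seen at equal depth. Sost was present in 60.7% and 51.9% of control spots and in 31.5% and 27.0% of Nf1Postn spots, and at 1000 UMIs in 21.4% and 14.2%. Among spots with Mepe, 86.1% and 73.8% in control and 52.0% and 51.9% in Nf1Postn also held Sost. Of the Sost/Mepe spots 239 (80.2%) held a single Mepe UMI, and 56 held exactly 1 UMI of each gene, of which 33 were control and 23 Nf1Postn spots. At least 2 UMIs of each gene were present in 50 spots, of which 49 were control and 1 was Nf1Postn.

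Spots with exactly 1 UMI of each gene had 814 CPM of Dmp1, spots with at least 2 of each had 3169 CPM, and all Sost/Mepe spots pooled had 2000 CPM. Outside the rule, 2500 spots with Sost alone had 810 CPM of Dmp1, 107 spots with Mepe alone had 584 CPM, and 3475 spots with neither had 276 CPM. Bglap, which encodes osteocalcin, had 1569 CPM at exactly 1 UMI of each, 4817 CPM at 2 or more, 2405 CPM with Sost alone and 585 CPM with neither. These groups differ in genotype, with 49 control spots of 50 at 2 or more UMIs of each and 1466 of 3475 with neither, so the edge of the rule is also given within genotype. Dmp1 had 821 CPM at exactly 1 UMI of each and 875 CPM with Sost alone in control, and 786 and 485 CPM in Nf1Postn. Bglap had 1406 and 2598 CPM in control, and in the reverse order 2248 and 1436 CPM in Nf1Postn. Muscle creatine kinase (Ckm) had 1654 CPM in control Sost/Mepe spots and 3417 CPM in control spots with neither gene, and 10638 and 21114 CPM in Nf1Postn.

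**Figure D1:**
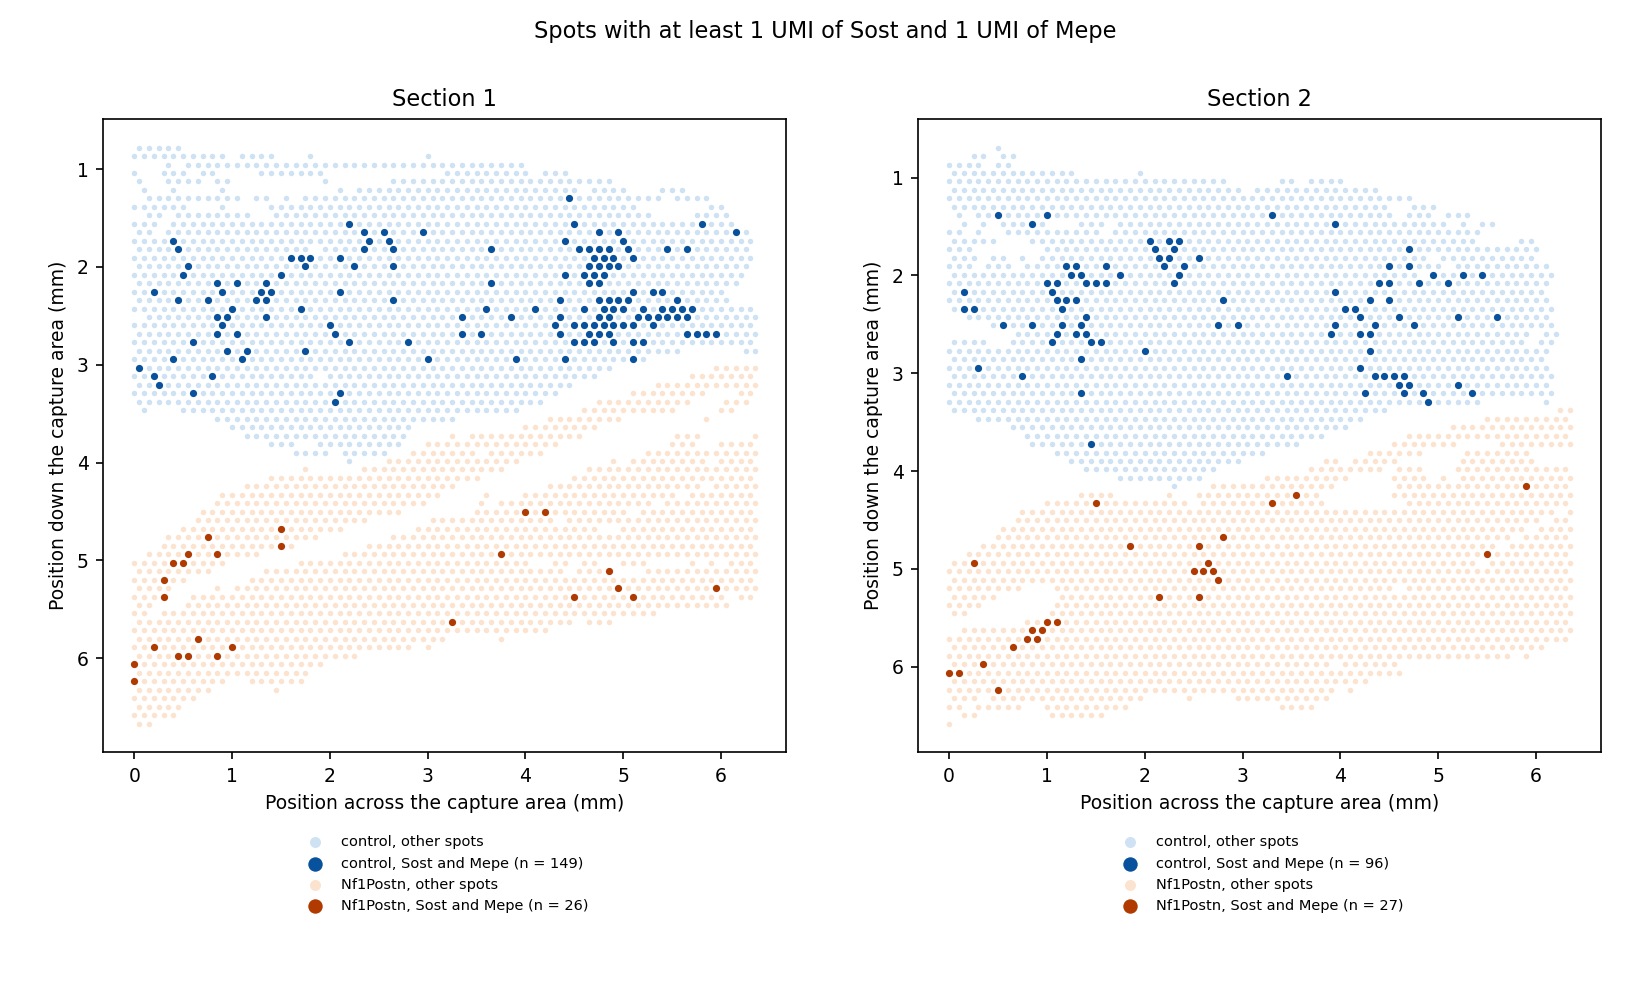
Position of every spot in both sections (mm across and down the capture area). Dark points are the Sost/Mepe spots (control blue, n = 149 and 96; Nf1Postn brown, n = 26 and 27) and pale points are all other spots; in control they lie mainly towards the left and the right of the callus, and in Nf1Postn they are few and mostly on the left.

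Sost/Mepe spots lay in zones rather than evenly, as the map of both sections shows. In control section 1 they made up 17.1% (13.8 to 20.8%) of spots beyond 4 mm across the capture area, 4.48% (3.00 to 6.41%) between 2 and 4 mm and 6.55% (4.70 to 8.85%) below 2 mm. In control section 2 the same zones held 7.36%, 3.30% and 6.10%. In Nf1Postn most lay below 2 mm, 17 of 26 in section 1 and 14 of 27 in section 2. Of the 298 spots 175 (58.7%) touched another Sost/Mepe spot, and they formed 160 patches, 123 of them of a single spot. The largest patch held 37 spots in control section 1 and 8 in control section 2, against 3 and 6 in Nf1Postn. The share that touched another was 68.5% and 57.3% in control and 19.2% and 48.1% in Nf1Postn, where Sost/Mepe spots were also sparser.

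In control the same zones held osteoclast transcripts. Spots in the top 5% for the summed osteoclast list made up 33.6% and 25% of control Sost/Mepe spots against 6.90% and 5.35% of the other control spots. In Nf1Postn they made up 1 of 26 (3.85%) and 0 of 27 Sost/Mepe spots against 1.60% and 0.196% of others. The median distance to the nearest osteoclast-rich spot was 100 µm, 1 spot away, in both control sections, against 361 and 400 µm for other control spots. In Nf1Postn it was 510 and 520 µm, against 794 and 1375 µm for other spots. These Nf1Postn distances rested on only 22 and 3 osteoclast-rich spots, against 157 and 114 in control. Cartilage-rich spots lay at a median of 693 and 656 µm from control Sost/Mepe spots, against 458 and 656 µm for other control spots, and at 1054 µm against 1758 µm in Nf1Postn section 2. Only 16 spots of Nf1Postn section 2 and none of Nf1Postn section 1 were cartilage-rich. Of the Sost/Mepe spots 6 of the 149 in control section 1 and none elsewhere were themselves cartilage-rich.

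Against all other spots, Sost/Mepe spots held more transcripts of osteocytes and of osteoclasts. Of 12057 genes with at least 100 UMIs, 21 were at least 2-fold higher in all 4 combinations of section and genotype (0.174%) and 6 were at least 2-fold lower (0.0498%). The 21 included Sost and Mepe themselves, which the rule put there. The others were genes on the lists of bone cells and further genes that are named below. Those on the lists were Dmp1, Phex, Irx5 and Ptprz1 (osteocyte), Bglap (osteoblast), and Acp5, Ctsk, Mmp9 and Oscar (osteoclast). Of these, Dmp1 and Bglap kept their call in the other settings run, and each of the rest lost it in some, as given below. In the 2 control sections alone, where the counts were larger and only 2 combinations had to pass, 58 of 11458 genes were higher (0.506%) and 196 lower (1.71%), and 20 of the 21 were among the 58.

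**Figure D2:**
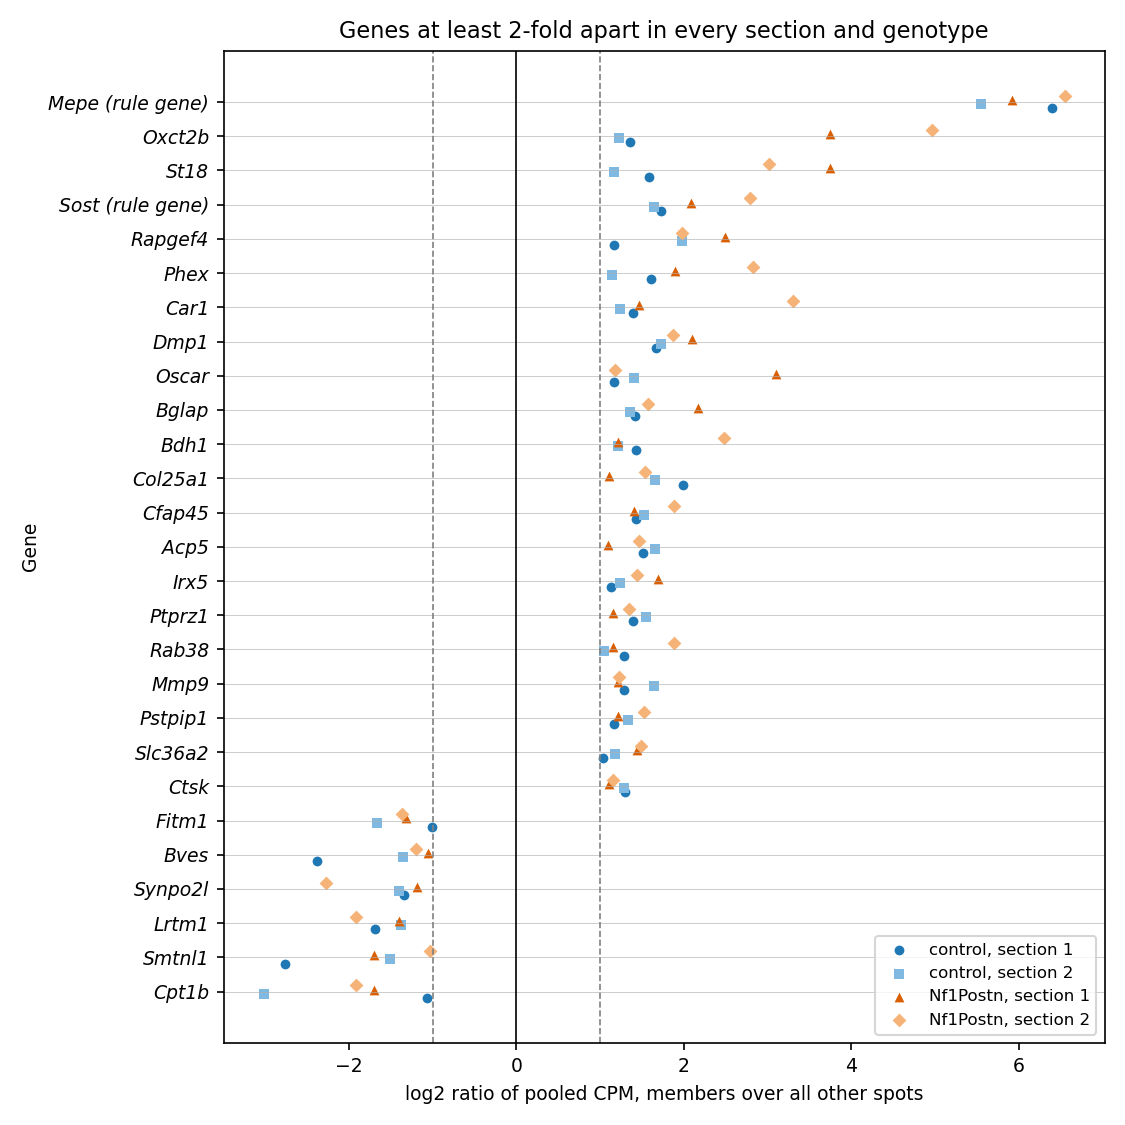
Genes at least 2-fold higher or lower in Sost/Mepe spots than in all other spots in every section and genotype; the horizontal axis is the log2 ratio of pooled CPM and each point is 1 section of 1 genotype. Mepe and Sost are rule genes; Dmp1 lies between 1.67 and 2.10, and the genes lower in Sost/Mepe spots, such as Fitm1, lie below -1.

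Mepe reached 184 and 160 CPM in control and 461 and 412 CPM in Nf1Postn Sost/Mepe spots, against 2.18, 3.42, 7.64 and 4.40 CPM in other spots. Sost reached 890 and 693 CPM in control and 786 and 811 CPM in Nf1Postn, against 269, 222, 185 and 117 CPM elsewhere. These 2 genes chose the spots, so their levels are a description. The CPM of Mepe was higher in Nf1Postn in Sost/Mepe spots and in other spots alike. Under the rule 1 UMI is a larger share of a shallower spot, and the part of this in the difference was not tested.

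Dmp1, a matrix protein of osteocytes that binds calcium, had the most UMIs of the osteocyte list. It stood at 2076 CPM (interval 1994 to 2160) from 2451 UMIs in control section 1 and at 2017 CPM (1915 to 2123) from 1464 UMIs in control section 2. In Nf1Postn it stood at 1605 CPM (1297 to 1964) from 94 UMIs and at 921 CPM (714 to 1169) from 67 UMIs. All 4 values lay above those of other spots, which were 653, 609, 375 and 252 CPM, and no intervals overlapped. The log2 ratios were 1.67, 1.73, 2.10 and 1.87, a mean of 3.58-fold.

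Phex, a membrane endopeptidase that is mutated in X-linked hypophosphatemia, was 3.65-fold higher on average. It stood at 126 CPM (107 to 148) and 82.7 CPM (63.1 to 106) in control, from 149 and 60 UMIs, and other control spots had 41.4 and 37.6 CPM. In Nf1Postn it rested on 5 and 9 UMIs, at 85.4 CPM (27.7 to 199) and 124 CPM, against 22.9 and 17.4 CPM elsewhere, so its size there was loosely known. Irx5, a homeobox gene of osteocytes, was 2.60-fold higher with log2 ratios of 1.13, 1.24, 1.69 and 1.45, and Ptprz1, a receptor phosphatase, was 2.57-fold higher with 1.39, 1.55, 1.16 and 1.34. Their Nf1Postn values rested on 8 and 5 and on 4 and 5 UMIs. After thinning to 1000 UMIs Phex and Irx5 were not called, at mean log2 ratios of 1.53 and 0.83. Ptprz1 was not called with factors that scale to the bulk of genes (TMM) in place of totals (1.19). With the mean of log2(CPM + 1) over spots Irx5 and Ptprz1 were not called (1.84 and 1.39).

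Of the 12 genes in the osteocyte list, 11 were tested and 6 were called higher, the rule genes Sost and Mepe included. Without the rule genes 9 were tested, with a median log2 ratio of 1.36, and Dmp1, Phex, Irx5 and Ptprz1 were those called. Over all genes tested the median was 0.00, and 0.174% were called higher. Fam20c, the kinase that phosphorylates secreted matrix proteins, was not called (0.56, 0.47, 0.74 and -0.88). Fbln7 was below other spots in every combination, at -0.31, -0.49, -1.43 and -0.35, but passed 2-fold in Nf1Postn section 1 only. Pdpn, podoplanin, a marker of early osteocytes, lay at 0.36 and -0.49 in control and rested on 2 and 0 UMIs in Nf1Postn. Dkk1 was found in 18 and 5 UMIs in control and in 2 and 0 in Nf1Postn. Fgf23, the phosphate-regulating hormone of osteocytes, was found in 1 UMI in all 298 spots and was not tested. The list without Sost and Mepe was 1.44 ± 0.15 higher on the log2 scale (SD over 4 combinations, 2.71-fold), and without Dmp1 as well it was 0.69 ± 0.19 higher (1.61-fold).

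Of 14 genes of phosphate handling and mineralization, 13 were tested. Beside the rule gene Mepe, 2 of the other 12 were called higher, Phex and Dmp1. The vitamin D receptor gene Vdr lay at 0.95, 0.81, 2.05 and 2.08, just short of 2-fold in control. The tissue-nonspecific phosphatase gene Alpl (0.29, 0.73, 0.82 and 1.10) and Phospho1, which releases phosphate inside matrix vesicles (0.57, 1.03, 0.86 and 0.78), lay above 0 without being called. The pyrophosphate genes Enpp1 and Ank and the phosphate transporters Slc20a1 and Slc20a2 were not called either.

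Among genes of the Wnt pathway the rule gene Sost was the sole one called. Wif1, a secreted inhibitor that binds Wnt ligands, was higher in the control sections (152 and 159 CPM against 65.7 and 64.1 CPM in other spots) and lay at -0.88 and 0.18 in Nf1Postn, where it rested on 1 and 2 UMIs. The secreted frizzled-related genes Sfrp1 and Sfrp2 were lower in control, at -1.04 and -1.35 and at -1.19 and -1.24. No tested member was called among 6 Wnt ligands, 9 receptors or 7 targets, with medians of 0.30, -0.02 and -0.06. Axin2, a target of canonical Wnt signalling, lay at 0.29, -0.41, -1.15 and -1.77, the last 2 of them from 1 UMI each.

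Osteoblast genes lay above 0 by smaller amounts, most of them short of a call. All 13 osteoblast genes tested had a mean log2 ratio above 0, with a median of 0.73, and 1 of the 13 was called. That gene was Bglap, at 4119 and 4871 CPM in control and 4901 and 1924 CPM in Nf1Postn, against 1544, 1907, 1091 and 644 CPM in other spots (3.09-fold on average). The mouse has near-identical osteocalcin genes next to Bglap (chromosome 3 from 88290808 to 88291772), which probes may not separate, so this level is uncertain. Spp1, osteopontin, lay at 1.19, 0.67, 1.27 and 1.16. The genes of type I collagen, which makes up most of the bone matrix, were not called, with Col1a1 between 0.39 and 0.63 and Col1a2 between 0.57 and 0.88.

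Osteoclast genes lay above 0 too, and some of them were called. All 11 had a mean log2 ratio above 0, with a median of 1.34, and 4 were called higher in every combination, while 8 of 10 tested passed in the control sections alone. With TMM factors none of these 4 was called, at mean log2 ratios of 1.26 for Acp5, 1.04 for Ctsk, 1.17 for Mmp9 and 1.55 for Oscar. Mmp9 and Oscar also lost the call with the mean of log2(CPM + 1) over spots (1.53 and 0.72). After thinning to 1000 UMIs Mmp9 lost it (1.13) and Oscar had too few UMIs to be tested. Acp5, the tartrate-resistant acid phosphatase that marks osteoclasts and is also made by some osteocytes, stood at 6363 and 5982 CPM in control and 2118 and 1045 CPM in Nf1Postn, against 2223, 1898, 992 and 378 CPM in other spots (2.70-fold). Ctsk, the collagen-degrading cathepsin K, was 2.31-fold and Mmp9, a gelatinase, 2.54-fold higher. Oscar, a costimulatory receptor, was 3.28-fold higher on 40, 23, 4 and 1 UMIs.

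Genes of osteoclast fusion were also higher in control. Dcstamp lay at 1.76 and 2.15 and Ocstamp at 1.57 and 1.59 there, and both had 0 UMIs in Nf1Postn section 2. Siglec15 lay at 1.41 and 2.00 in control. Summed over the list, osteoclast genes reached 17813 and 16627 CPM in control and 8061 and 4041 CPM in Nf1Postn Sost/Mepe spots, with Ctsk the most abundant in all 4. The part of osteoclasts in the shared genes Acp5 and Ctsk was not tested.

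Of a list of 10 genes that remove or protect the matrix around osteocytes, Acp5 and Ctsk were called higher and the other 8 were not called. The carbonic anhydrase gene Car2 was higher in control (1.33 and 1.5) and lay at 0.20 and 1.05 in Nf1Postn. Mmp13, a collagenase also made by hypertrophic chondrocytes, lay between 0.90 and 1.10. The gap junction gene Gja1, which joins osteocytes to each other, lay between 0.68 and 0.77 in all 4 combinations. Tnfsf11, which encodes the osteoclast-inducing ligand RANKL, lay at 0.35, 0.92, 2.40 and -0.15 on 58, 43, 7 and 1 UMIs, and Tnfrsf11b, its decoy receptor OPG, at -0.42, -0.08 and 0.08 with 0 UMIs in the last group.

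The remaining genes called higher had few UMIs. Slc36a2, an amino acid transporter (222, 148, 7 and 6 UMIs), was 2.44-fold higher. Rapgef4 was 3.74-fold, Bdh1 3.00-fold, Col25a1 2.98-fold, Cfap45 2.95-fold, Rab38 2.54-fold and Pstpip1 2.48-fold higher. Oxct2b, St18 and Car1 were 7.09-fold, 5.20-fold and 3.60-fold higher, but on at most 13 UMIs in any combination, and Col25a1 and Rab38 rested on 1 UMI in each Nf1Postn section.

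The 6 genes called lower, Cpt1b, Smtnl1, Lrtm1, Synpo2l, Bves and Fitm1, are genes of muscle. Each rested on 1 to 5 UMIs per Nf1Postn section, and in Nf1Postn section 1 the intervals of all 6 included 0. None of the 6 was called after thinning to 1000 UMIs or with the mean of log2(CPM + 1) over spots. After thinning the mean log2 ratios were -1.90 for Synpo2l, -1.18 for Fitm1, -1.06 for Smtnl1, -0.95 for Cpt1b and -0.37 for Bves, with none for Lrtm1. With the mean over spots they were -1.15 for Fitm1 and -1.02 for Synpo2l, and between -0.93 and -0.48 for the others. Synpo2l stood at 8.47 and 13.8 CPM in control and 34.2 and 27.5 CPM in Nf1Postn Sost/Mepe spots, against 21.4, 36.5, 77.6 and 133 CPM elsewhere. All 10 abundant muscle genes of the muscle list also lay below other spots (median -0.84), and none reached 2-fold everywhere. Muscle transcripts were still present, with a list sum of 11340 and 18672 CPM in control and 51113 and 99846 CPM in Nf1Postn Sost/Mepe spots. With factors that scale to the bulk of genes (TMM) in place of totals, 12 genes were higher and 16 lower, and the median of all genes moved by -0.17.

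Most lists of other tissues stood at or below 0. Cartilage genes had a median of -0.46. Their summed level lay below that of other spots in control only, at log2 ratios of -1.04 and -0.81, and at 0.09 and 0.06 in Nf1Postn. The medians were -0.37 for macrophage, -0.30 for erythroid, -0.43 for tendon and -0.85 for Schwann cell genes, with no gene of these 5 lists called in either direction over all 4 combinations. In the control sections alone 3 of 10 cartilage, 1 of 5 tendon and 1 of 5 Schwann cell genes were called lower, against 1.71% of all genes tested there. Endothelial genes had a median of 0.02. The exception was hypertrophic cartilage, whose 4 genes all had a mean above 0, with a median of 0.40 and none called. Of 7 macrophage genes 3 had a mean above 0 (Adgre1, Cd68 and Csf1r, the last 2 also expressed by osteoclasts) and 4 below 0 (C1qa, C1qb, C1qc and Mrc1). Erythroid genes, read here for blood in the tissue, summed to 147 and 193 CPM in control and 1930 and 1306 CPM in Nf1Postn.

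**Figure D3:**
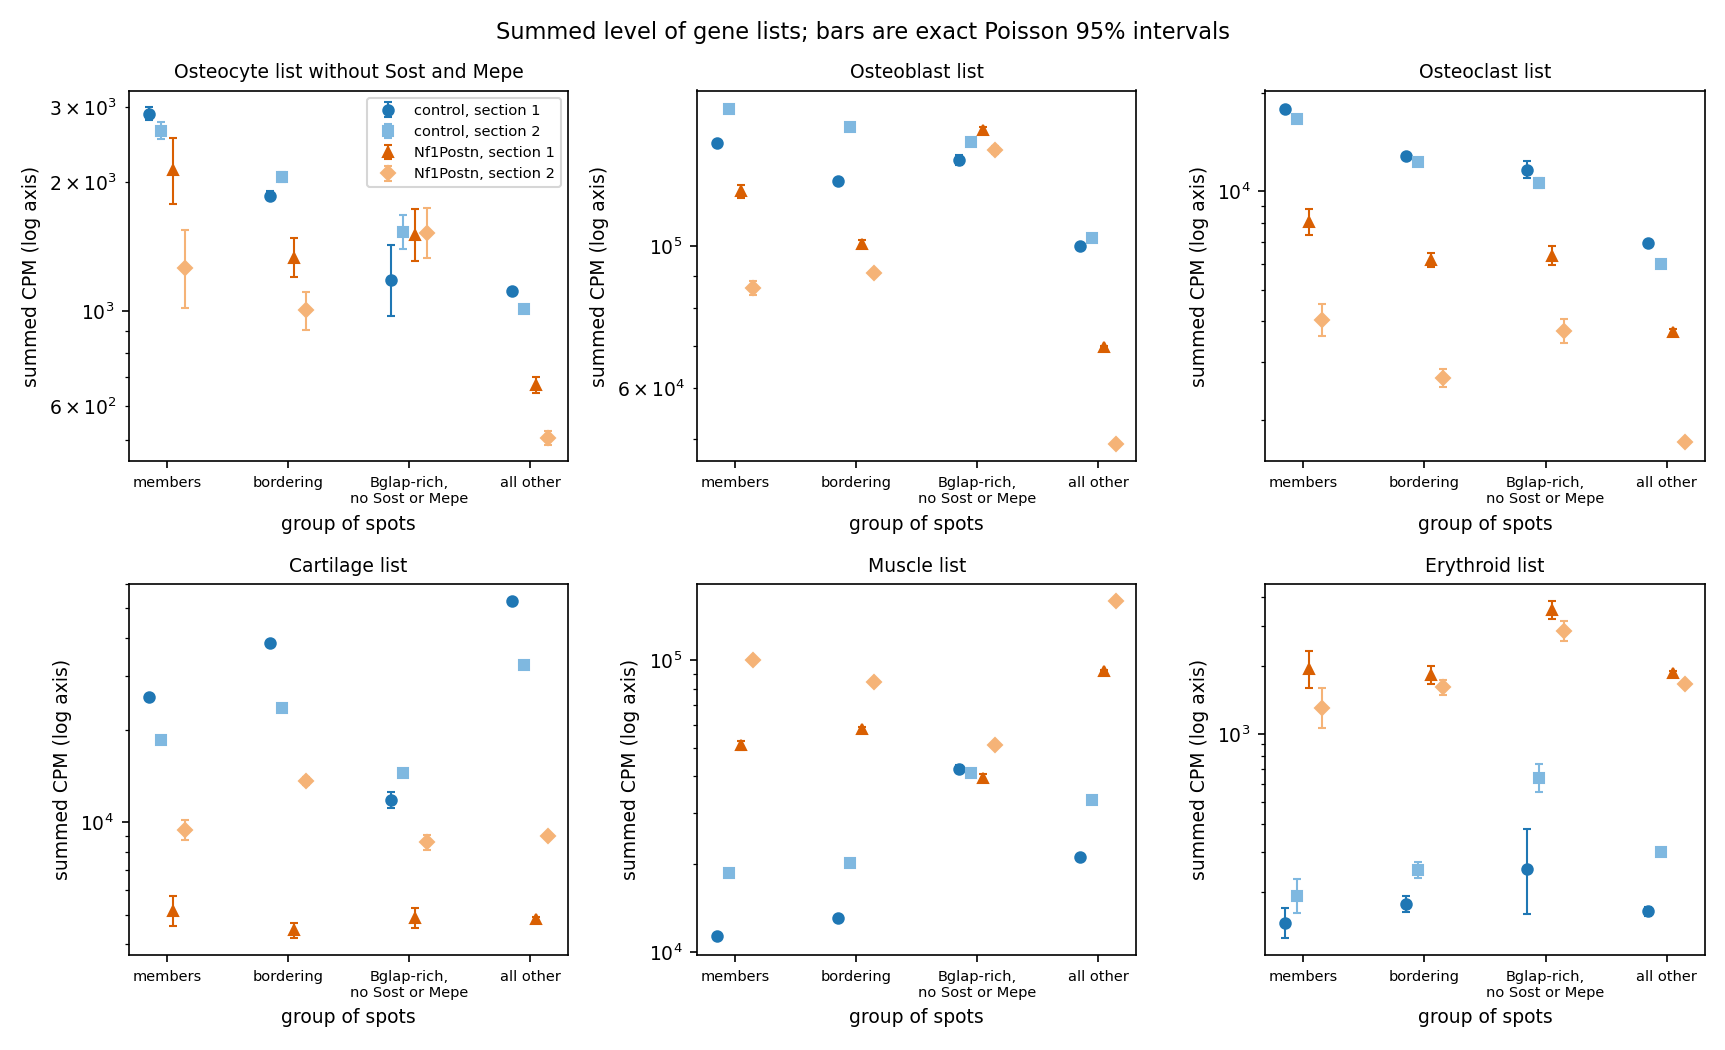
Summed level of 6 gene lists (pooled CPM) in Sost/Mepe spots, bordering spots, Bglap-rich spots without Sost and Mepe, and all other spots, for each section and genotype, with exact Poisson 95% intervals. Osteoclast genes reach 17813 and 16627 CPM in control Sost/Mepe spots and 8061 and 4041 CPM in Nf1Postn.

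The name given to these spots, osteocyte-bearing cortical bone, could be checked only in part. Of its 3 marker genes Sost and Mepe are the rule, and Bglap, which the rule did not use, was present in 98.4% of control and 92.5% of Nf1Postn Sost/Mepe spots. It was also present in 90.9% and 64.6% of other spots, and in 97.3% and 42.3% of the muscle-rich spots described next, so in control its presence alone does not check the name. At 1000 UMIs Bglap was in 81.4% (75.9 to 86.1%) of control Sost/Mepe spots and 24.3% (11.8 to 41.2%) of control muscle-rich ones. Dmp1 was present in 96.3% and 79.2%. Nothing measured here separates the old cortex from woven bone. With osteoclast and osteoblast genes in the same spots, they are called here by their rule, Sost/Mepe spots.

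Shares of spots with a UMI depend on depth and on RNA that has spread on the slide, so they were set beside spots in the top 10% for muscle genes, which should lack Dmp1. Among 37 such control spots 56.8% held Dmp1, and among 572 such Nf1Postn spots 29.2%, at median depths of 5788 and 3035 UMIs against 7214 and 2433 in Sost/Mepe spots. After thinning to 1000 UMIs the share with Dmp1 was 77.7% (71.9 to 82.8%) in control Sost/Mepe spots and 10.8% (3.03 to 25.4%) in muscle-rich spots. In Nf1Postn it was 63.8% (48.5 to 77.3%) and 10.1% (7.77 to 12.9%). The shares in other spots, 37.5% and 24.8%, lay between. Thinning left out 3 control and 6 Nf1Postn Sost/Mepe spots.

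Phex was present in 49.0% of control and 22.6% of Nf1Postn Sost/Mepe spots, in 18.9% and 5.66% of other spots, and in 5.41% and 1.57% of muscle-rich spots. At 1000 UMIs it was in 11.6% (7.83 to 16.3%) and 6.38% (1.34 to 17.5%) of Sost/Mepe spots, in 3.76% and 2.06% of other spots, and in 0 of 37 (up to 8.11%) and 0.712% of muscle-rich ones. Mepe was found in 10 of 572 Nf1Postn muscle-rich spots (1.75%), which is about its share in other spots of that genotype (1.72%). It was found in 0 of 37 control ones, which allows a share of up to 8.11% by the limit of 3 counts. In Nf1Postn spots bordering a Sost/Mepe spot the share was 4.41% (2.13 to 7.95%).

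The tissue next to Sost/Mepe spots was close to them in most genes. Of 8870 genes tested against the 987 bordering spots of the same callus, 1 was called higher (0.0113%), Mepe, and 0 lower. Over the control sections alone 1 of 8532 was at least 2-fold higher (0.0117%) and 5 were at least 2-fold lower (0.0586%). Bordering spots lack Sost and Mepe together by construction. Dmp1 was 0.74, 0.46, 0.86 and 0.54 higher on the log2 scale in Sost/Mepe spots than in bordering ones, in the same direction in all 4 but short of 2-fold. Without Sost and Mepe the 7 osteocyte genes tested had a median of 0.36, the osteoclast list 0.49 and the osteoblast list 0.05, against -0.01 over all genes tested.

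**Figure D4:**
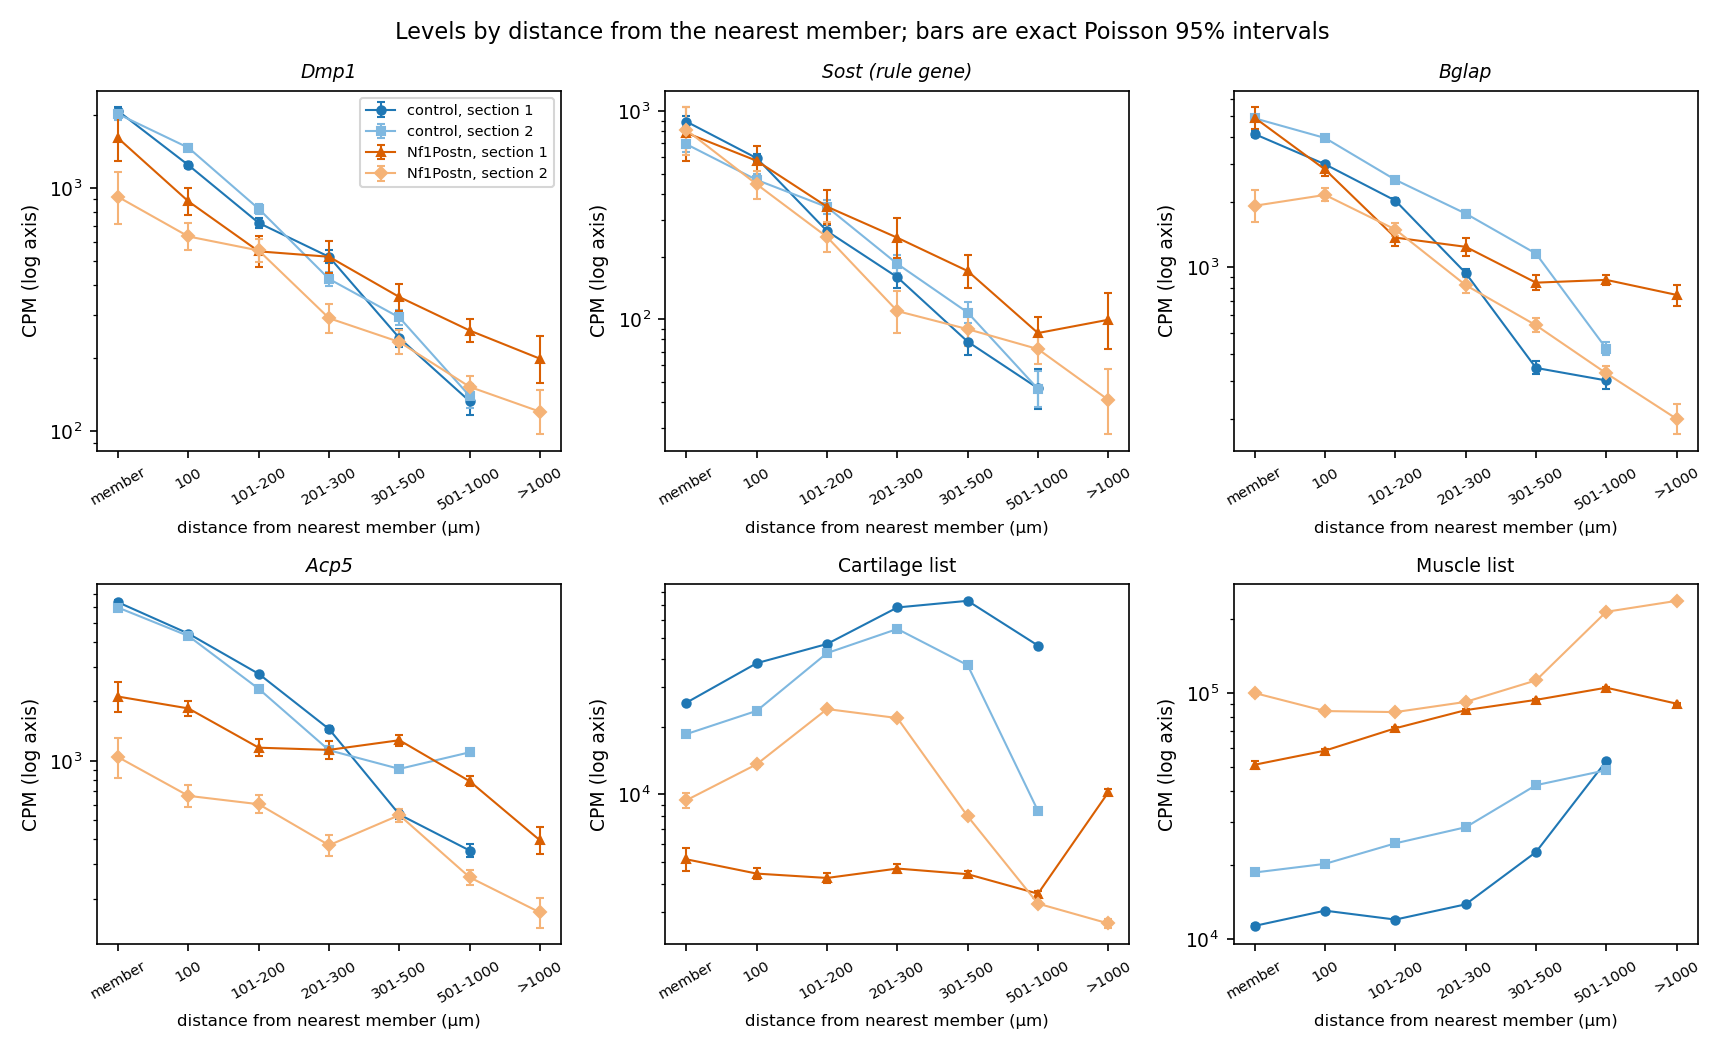
Pooled CPM by distance from the nearest Sost/Mepe spot (µm, with Sost/Mepe spots at 0) for each section and genotype, with exact Poisson 95% intervals; rings of under 20 spots are left out. Dmp1 in control section 1 goes from 2076 CPM in Sost/Mepe spots to 1244 CPM at 100 µm and 133 CPM beyond 500 and up to 1000 µm.

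Dmp1 declined with distance. In control section 1 it went from 2076 CPM to 1244 CPM in bordering spots, 720 CPM at up to 200 µm, 522 CPM at up to 300 µm, 242 CPM at up to 500 µm and 133 CPM at up to 1000 µm, each ring starting where the one before it ended. In control section 2 the same steps were 2017, 1467, 822, 423, 294 and 140 CPM. In Nf1Postn Dmp1 declined from 1605 to 260 CPM in section 1 and from 921 to 152 CPM in section 2 over the same range. Each step was down in all 4.

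Acp5 went from 6363 and 5982 CPM in control to 535 and 911 CPM in the ring of up to 500 µm, and then to 351 CPM in section 1 but up to 1105 CPM (1062 to 1150) in section 2 in the ring of up to 1000 µm. In Nf1Postn it fell from 2118 and 1045 CPM to 1137 and 374 CPM in the ring of up to 300 µm, stood at 1273 and 531 CPM in the next ring and at 789 and 257 CPM in the one after. Bglap was lower in bordering than in Sost/Mepe spots in 3 of the 4, and in Nf1Postn section 2 it was 1924 CPM in Sost/Mepe spots and 2159 CPM in bordering ones. Cartilage genes had their highest level at a distance, at 72987 CPM in the ring of up to 500 µm in control section 1, 54672 CPM in that of up to 300 µm in control section 2 and 24033 CPM in that of up to 200 µm in Nf1Postn section 2. In Nf1Postn section 1 they stayed between 3612 and 5140 CPM up to 1000 µm and stood at 10220 CPM in 195 spots farther out.

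Spots without Sost and Mepe whose Bglap reached the median of the Sost/Mepe spots of their section (2666 and 2262 CPM) served as another comparison. They were chosen by these 3 genes alone, and whether they are bone was not tested. There were 22 and 80 in control and 63 and 47 in Nf1Postn, and they were shallower, with medians of 3359, 2973, 1720 and 2503 UMIs. Of 5032 genes tested, 3 were higher in Sost/Mepe spots (0.0596%), Sost and Mepe, which this comparison group lacks by construction, and Bdh1, a ketone body enzyme, on 75, 28, 2 and 4 UMIs. Bdh1 was no longer called with spots of at least 1000 UMIs, with muscle genes left out of the totals or with the mean of log2(CPM + 1) over spots, where its mean log2 ratio was 1.27, 1.29 and 0.88, and with either section left out it had too few UMIs (41 and 81) to be tested. None was lower. Dmp1 lay at 1.48, 0.87, 0.64 and -0.18, so its excess did not hold in Nf1Postn section 2. Without Sost and Mepe the 7 osteocyte genes tested had a median of 0.34 and the osteoclast list 0.41, against 0.01 over all genes tested. The osteoblast list holds Bglap, which chose the comparison spots, and was not read. In the control sections alone 11 of 4354 genes were higher (0.253%) and 40 lower (0.919%), and 7 of 10 muscle genes were among the lower ones.

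Sost/Mepe spots varied widely among themselves. The number of Sost UMIs ran from 1 to 30 with a median of 5 in control section 1, from 1 to 39 with a median of 3 in control section 2, from 1 to 3 with a median of 2 in Nf1Postn section 1 and from 1 to 9 with a median of 1 in Nf1Postn section 2. Mepe reached at most 7 UMIs in a spot. Dmp1 ran from 0 to 53 UMIs with a median of 14 in control section 1 and from 0 to 65 with a median of 12 in control section 2, and its highest counts in Nf1Postn were 13 and 11.

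Across the 245 control spots the Dmp1 level went with the summed osteoclast level (Pearson r = 0.47 on the log2 scale, Spearman rho = 0.50), and across the 53 Nf1Postn spots likewise (0.50 and 0.47). Bglap and the osteoclast list gave 0.23 and 0.19 in control and 0.43 and 0.54 in Nf1Postn. Sost, whose range the rule limits to 1 UMI or more, gave 0.14 and 0.08 in control and 0.09 and 0.18 in Nf1Postn, and these are not compared with the others. Dmp1 and the cartilage list gave -0.31 and -0.20 in control and 0.03 and 0.05 in Nf1Postn, and Dmp1 and the muscle list -0.06 and -0.14 in control and -0.44 and -0.37 in Nf1Postn. These spots share libraries, depth and tissue zones, and the correlations are descriptions without a test.

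The targeted gene was the first to be compared between genotypes. Nf1 stood at 94.0 CPM (77.3 to 113) and 62.0 CPM (45.2 to 83.0) in control Sost/Mepe spots, from 111 and 45 UMIs, and at 120 CPM (48.1 to 246) and 82.5 CPM in Nf1Postn, from 7 and 6 UMIs. In all other spots the log2 ratio of Nf1Postn over control was -0.43 and -0.70. The position of the probes relative to the deleted part is not given in the sources used here, other cells of a spot keep the floxed allele, and the level therefore does not check the label.

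**Figure D5:**
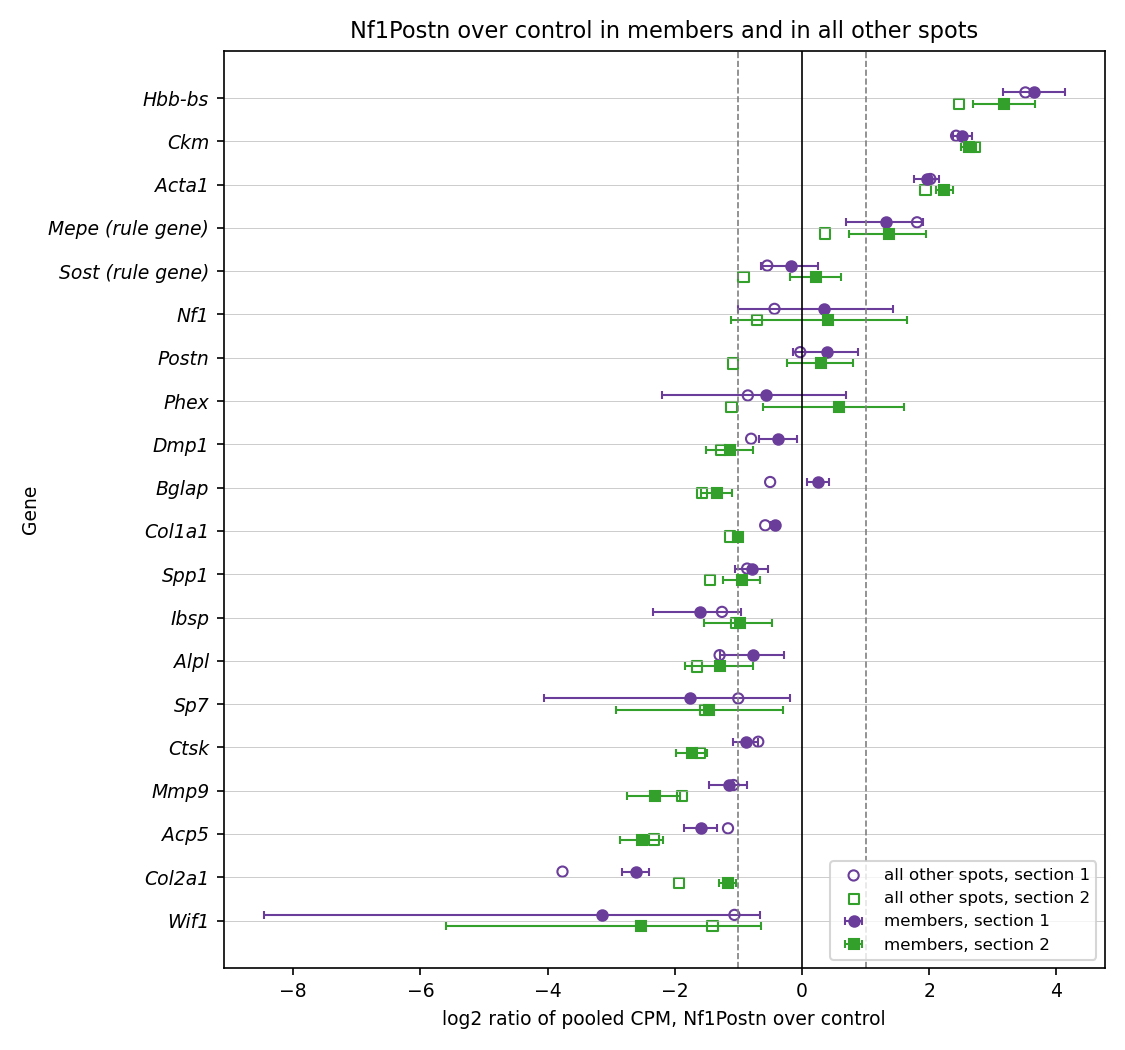
Log2 ratio of pooled CPM, Nf1Postn over control, in Sost/Mepe spots (exact 95% intervals) and in all other spots, by section, for named genes. Muscle and globin genes lie above 0 (Hbb-bs at 3.65 and 3.18), Acp5 at -1.59 and -2.52, and Dmp1 at -0.37 and -1.13.

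Between the genotypes, Sost/Mepe spots of Nf1Postn held more muscle and globin transcripts and fewer of osteoclasts and cartilage. Of 3107 genes with at least 50 UMIs per section summed over both genotypes, 89 were at least 2-fold higher in Nf1Postn in both sections (2.86%) and 116 lower (3.73%). Control held most of the UMIs, so a gene could pass on its control counts alone. The balance of higher and lower genes therefore depends on this minimum, and without it 778 were higher and 183 lower. The split depended on scaling, with 57 higher and 281 lower with TMM factors and 98 and 85 with muscle genes left out of the totals. After thinning to 1000 UMIs 20 were higher and 8 lower, with 20 of the 89 and 5 of the 116 kept. The median over all tested genes was -0.15. Sost (-0.18 and 0.23) and Mepe (1.33 and 1.37) are rule genes and were not read.

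Osteocyte genes were not called between the genotypes, apart from the rule gene Mepe. Dmp1 lay at -0.37 (interval -0.68 to -0.07) and -1.13 (-1.51 to -0.78), and in all other spots at -0.80 and -1.28. Phex lay at -0.56 (-2.21 to 0.69) and 0.58 (-0.62 to 1.60), Irx5 at -0.57 and -1.33 and Ptprz1 at -0.74 and -0.59. Bglap went up in section 1 (0.25, interval 0.07 to 0.42) and down in section 2 (-1.34, -1.59 to -1.10). Of 13 osteoblast genes 2 were called lower, Sp7, a transcription factor needed to form osteoblasts (-1.76 and -1.45), and Ifitm5, a membrane protein of osteoblasts (-1.33 and -2.67), both on 6 or fewer Nf1Postn UMIs per section.

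Of 8 osteoclast genes tested, 4 were called lower, and none had a mean log2 ratio above 0. Acp5 lay at -1.59 (-1.86 to -1.33) and -2.52 (-2.86 to -2.19) and Mmp9 at -1.15 (-1.46 to -0.87) and -2.32 (-2.75 to -1.91). Ctsk lay at -0.88 and -1.73 and was not called. Itgb3 and Siglec15 were called on 2 and 3 Nf1Postn UMIs, with intervals that included 0. In all other spots Acp5 was lower as well, at -1.16 and -2.33. Tnfrsf11a, which encodes the RANKL receptor, rested on 1 UMI in each Nf1Postn section (-2.37 and -2.41), and its intervals included 0.

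Wif1 came first among the genes called lower when they were ordered by the smaller of the differences in the 2 sections. Wif1 met the minimum of UMIs between genotypes on its control UMIs alone, so its place in this order was not read. It had 179 and 115 UMIs in control and 1 and 2 UMIs in Nf1Postn Sost/Mepe spots, at log2 ratios of -3.15 (-8.46 to -0.65) and -2.53 (-5.59 to -0.64). In all other spots it lay at -1.06 and -1.41. Of the BMP target genes Id1, Id3 and Id4, which encode inhibitors of basic helix-loop-helix factors, Id4 was called lower on 1 UMI per Nf1Postn section, with intervals that included 0. Id1 lay at 0.20 and -0.10 and Id3 at -0.50 and -0.87. Of 4 Ras and Ras GTPase-activating genes and 5 genes of ERK feedback tested, 0 were called in either direction, and Dusp6, an ERK phosphatase, lay at 0.56 and -0.16.

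Of 10 cartilage genes 4 were called lower in Nf1Postn. Col2a1, the main collagen of cartilage, lay at -2.61 (-2.83 to -2.41) and -1.17 (-1.30 to -1.03), and the difference was larger in all other spots, at -3.77 and -1.94. Sox9, the transcription factor of chondrocytes, lay at -1.69 and -1.91, Hapln1, a link protein, at -1.68 and -1.95, and Matn3, a matrilin, at -2.91 and -1.53. Col10a1, the collagen of hypertrophic cartilage, lay at -1.31 and -1.21 on 7 and 4 Nf1Postn UMIs.

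All 10 muscle genes were higher in Nf1Postn, among them Ckm at 2.52 (2.37 to 2.67) and 2.62 (2.50 to 2.74) and Acta1, skeletal muscle actin, at 1.96 and 2.24. Both erythroid genes tested were higher, Hbb-bs at 3.65 (3.15 to 4.13) and 3.18 (2.69 to 3.67) and Hba-a2 at 3.81 and 1.86. These differences were not particular to Sost/Mepe spots: Ckm lay at 2.42 and 2.71 and Hbb-bs at 3.51 and 2.46 in all other spots. Of the 89 genes called higher 71 (79.8%) were also at least 2-fold higher in both sections in all other spots, and of the 116 called lower 32 (27.6%) were also lower. For 73 of the 89 and 32 of the 116 the intervals lay on 1 side of 0 in both sections. The muscle share moves with genotype beside every gene above, and its part in the other differences was not tested, apart from the counts without muscle genes in the totals.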

How the data were processed

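Spatial libraries were prepared from 2 sections of 1 paraffin block with the Visium FFPE probe assay. The authors deposited raw UMI counts per spot and gene, exported from Partek Flow after Space Ranger 1.3.0 with build mm39 (submitters' processing notes). The values deposited by the authors were handled like estimated counts (expected counts), because 9 named entries are not whole. An entry without a gene name (18.4 UMIs, 5.2e-05 percent) was left out, leaving 19430 genes. Genotype came from the deposited spot annotation. Barcodes are slide positions, and 2711 were shared between sections.

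UMIs were summed over the spots of each section and genotype and divided by all their UMIs (CPM). A group at 0 was set to 3 counts, as a bound. Intervals were exact Poisson for levels, Clopper-Pearson for shares and conditional binomial for ratios, at 95%, and no test was run. Groups at least 2-fold apart were called in genes with at least 100 UMIs. Between genotypes the minimum was 50 per section, summed over both genotypes. Named genes were the 25 highest and 10 lowest called against other spots, the 10 each way between genotypes with the largest smaller log2 ratio of the sections, the 10 highest and 5 lowest in the other comparisons, and genes of 29 lists (224 genes, of which 4 are not in the tables). Spots were 100 µm apart. Some genes that this rule names are not reported here. The calculations were tested on simulated data. The members and lists were chosen with earlier results of these data known. Alternatives covered the rule (2 UMIs), depth, scaling, the mean of log2(CPM + 1), the minimum count and each section left out. Analyses used Python 3.11.15 (numpy 2.4.6, scipy 1.17.1, pandas 2.3.3) and R 4.3.3 (edgeR 4.0.16, TMM factors only).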

Additional observations from a re-analysis of the deposited data

Results flagged for a closer look

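In 5 of 66 named or listed genes with at least 10 UMIs in every combination (7.58%), the difference between Sost/Mepe spots and other spots had 1 direction in both control sections and the opposite in both Nf1Postn sections. Of all 834 genes with as many UMIs 108 did so (12.9%). None of these differences between genotypes was tested, since each genotype was 1 mouse. Sfrp2, a secreted Wnt inhibitor, lay at -1.19 and -1.24 in control and at 0.08 and 0.26 in Nf1Postn on the log2 scale, and the mean in control minus that in Nf1Postn was -1.38. Col9a3, a cartilage collagen, lay at -1.30 and -0.85 and at 0.19 and 0.30, with a difference of -1.32. Fmod, the tendon proteoglycan fibromodulin, lay at -0.46 and -0.71 and at 0.07 and 0.25, with a difference of -0.742. Lrp6, a Wnt co-receptor, lay at -0.29 and -0.28 and at 0.45 and 0.27, with a difference of -0.640. Pf4, a platelet chemokine, lay at -0.17 and -0.18 and at 0.17 and 0.04, with a difference of -0.282. In Nf1Postn Sost/Mepe spots these genes had 10 to 49 UMIs per section, and the intervals of their ratios in Nf1Postn all included 0. For Pf4 those in both control sections did too (-0.44 to 0.09 and -0.51 to 0.13).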

How the results depend on the processing

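With a section left out 2 combinations had to pass in place of 4, and the counts were: against other spots 52 to 57 higher and 38 to 68 lower, against bordering spots 2 to 3 and 0 to 6, against Bglap-rich spots 2 to 19 and 1 to 4, and between genotypes 197 to 324 and 467 to 656. Of the 21 genes higher than in other spots 18 were kept without either section. The 2 control sections alone, chosen after seeing the data, gave 58 higher and 196 lower, 5 lower against bordering spots, and 11 and 40 against Bglap-rich spots. With at least 2 UMIs of each rule gene 50 spots were left and the comparisons rested on 1 combination, control section 1: 341 higher and 1148 lower, 2 and 8 against bordering and 18 and 23 against Bglap-rich spots. There Dmp1 was in 100% of control spots, 64.0% of spots touched, and the list ratios became 2.06 for osteocyte without rule genes, 0.11 for osteoblast, 0.79 for osteoclast, -1.83 for cartilage, -0.15 for muscle and -1.34 for fibroblast and periosteum genes, and Cpt1b turned to 0.20. It was not run between genotypes, since 1 Nf1Postn spot was left.

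After thinning to 1000 UMIs 47 spots met the rule, of which 29.8% touched. The gene comparisons instead kept the 289 Sost/Mepe spots with at least 1000 UMIs and thinned their counts. They gave 11 genes higher against other spots, 0 against bordering and 1 against Bglap-rich spots, and 20 higher and 8 lower between genotypes. Col25a1 turned to -0.054 there, and the median gene moved by 0.21 against other and 0.13 against bordering spots. Thinning kept 7 of the 21 higher and 0 of the 6 lower genes. Of those lost, Bdh1, Car1, Col25a1, Oscar, Oxct2b, Rab38 and St18 had too few UMIs to be tested. Among the other lost higher genes the mean log2 ratios were 1.85 for Rapgef4, 1.53 for Phex, 1.37 for Slc36a2, 1.13 for Mmp9 and 1.02 for Pstpip1. Cfap45 and Irx5 lay at 0.83. After thinning Mepe had too few UMIs (87) to be tested against bordering spots. Against Bglap-rich spots Mepe (84 UMIs) and Bdh1 (13 UMIs) had too few as well. TMM factors gave 12 and 16 against other spots and 57 and 281 between genotypes, where the median gene moved by -0.31, and list ratios of 1.27 for osteocyte without rule genes, 0.54 for osteoblast, 1.13 for osteoclast and -0.98 for muscle. The mean of log2(CPM + 1) over spots kept 8 of the 21 higher and 0 of the 6 lower genes against other spots, although it called 21 and 2, and gave 2 higher against bordering and 24 against Bglap-rich spots (median gene moved by 0.53), and 13 and 2184 between genotypes (by -1.71). Without a minimum of UMIs 6 were higher against bordering spots, and 778 and 183 between genotypes. Apart from genes with too few UMIs to be tested, the cause of these moves was not tested. Counts of the remaining settings stayed within 1.5 times. Direction did not turn for any called gene named in the text other than Cpt1b and Col25a1. No paired analysis was possible because each genotype was 1 mouse, so that no test was run. Genotype ratios were taken within each section. The few UMIs of Nf1Postn limit every value for that genotype.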

Other observations

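No gene of the BMP, ERK and Ras lists was called in Sost/Mepe spots against other spots. BMP ligands had a median log2 ratio of 0.58 over 7 genes tested, BMP receptors and inhibitors 0.14 over 10, BMP targets 0.63 over 4, ERK feedback genes 0.17 over 12, and Ras and Ras GTPase-activating genes 0.09 over 7. Bmp3, a ligand that restrains bone formation, lay at 1.07 and 1.16 in control and had 3 and 0 UMIs in Nf1Postn. Dusp4, an ERK phosphatase, lay at 1.43, 1.05, 1.39 and 0.06. Mechanosensing genes had a median of 0.22 and the genes of the RANKL system 0.32. Granulocyte and B cell genes lay at -0.05 and -0.06, megakaryocyte genes at -0.54, adipocyte genes at -0.38 and fibroblast and periosteum genes at -0.04.

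Beside Hbb-bs and Ckm, the genes named as highest in Nf1Postn Sost/Mepe spots were genes of skeletal muscle. Mybpc2, a myosin-binding protein, lay at 2.57 and 2.59, Myoz1 at 2.56 and 2.76, Trim54 at 2.63 and 2.39, Tmod4 at 2.33 and 2.86, Casq1, the calcium store protein of muscle, at 2.33 and 2.45, Myl1 at 2.29 and 2.27 and Pvalb at 2.26 and 2.40. Beside Wif1, Tnfrsf11a and Id4, the lowest of the genes that met the minimum of UMIs were Srp19, Pitpnm1, Msi2, Abi1, Gm2a, Tssc4 and Wipi1. Wipi1, an autophagy gene, had 276 and 213 UMIs in control and 3 and 6 in Nf1Postn, at -2.19 and -1.83. The other 6 rested on 1 or 2 Nf1Postn UMIs per section.

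Postn, whose promoter drives Cre in the mutant, was itself present in these spots. It stood at 470 and 401 CPM in control and 615 and 495 CPM in Nf1Postn, and its log2 ratio to other spots was -0.65, -1.26, -0.24 and 0.14.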
